A study of Homo sapiens with 12 samples.

Results

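The genes described here encode the 9 subunits that are particular to dynactin: ACTR1A, ACTR1B, ACTR10 and DCTN1 to DCTN6. They were taken by gene name, and all 9 were found, once each, among the 20979 entries of the deposited expression table. ACTR1A entered because its transcript was lower with LATS siRNA in an earlier look at these data, so its LATS values are given as a description without a test. The other 8 entered because they belong to the same complex, and the question was whether they share that change. All 9 were above FPKM 1 (sequenced fragments scaled to transcript length and to library size) in all 12 libraries and passed the filter on low values.

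Dynactin is the multisubunit partner of cytoplasmic dynein, the motor that walks toward microtubule minus ends. Its core is a short actin-like filament built mainly from ACTR1A, with the close paralogue ACTR1B as a minor component. ACTR10, DCTN4, DCTN5 and DCTN6 close one end of that filament, capping protein closes the other, and DCTN1, DCTN2 and DCTN3 form the shoulder and the projecting arm. Through dynactin, dynein carries endosomes, Golgi membranes, centrosomal components and mitotic checkpoint proteins.

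PolyA RNA was sequenced from 3 established human kidney lines 48 h after transfection with 25 nM siRNA. CAKI-1 and A704 come from renal carcinomas, while HK2, labelled normal, is an immortalised proximal tubule line. Each line gave 1 library with a LATS siRNA, 1 with each of 2 independent PTPN14 siRNAs (PTPN14-1 and PTPN14-2) and 1 with a non-targeting control siRNA, 3 libraries per reagent and 12 in all. LATS1 and LATS2 are the Hippo pathway kinases that restrain the coactivators YAP1 and TAZ, and PTPN14 is a phosphatase that binds YAP1. The labels do not say which LATS gene the siRNA was aimed at. Each combination of line and siRNA has 1 library and was not repeated. The siRNA p-values rest on how siRNA differences vary over the 3 lines. In that spread, differences between lines and technical variation cannot be told apart. For PTPN14 the siRNA numbers in the sample titles are swapped in the descriptions, and those in the titles are used.

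Effective depth, estimated from the steps of the lowest values, ran from 17.0 to 23.4 M reads per library. LATS1 stood at 22.5 to 30.7% of the same line's control with LATS siRNA, LATS2 at 98.2 to 122%. PTPN14 stood at 21.4 to 28.7% with PTPN14-1 and 31.2 to 37.5% with PTPN14-2. Of 5 epithelial markers, 3 had a median above FPKM 1 in CAKI-1 and 4 in A704 and in HK2: CDH1 was near 0 in CAKI-1 and HK2, and EPCAM was below 1 in CAKI-1 and A704. Among kidney tubule markers, PAX8 was above FPKM 1 in every library, and LRP2 and AQP1 had medians below 1 in each line. The 5 fibroblast markers summed to 54.6 to 83.5 FPKM in HK2, mostly LUM and DCN, and to 0.74 to 2.54 in the other lines, and no endothelial or leukocyte list summed to more than 0.42. In such bulk libraries, fewer cells of a type and less RNA per cell cannot be told apart.

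ACTR1A lies on chromosome 10 at 102461881 to 102502711 and ACTR1B on chromosome 2 at 97655963 to 97664107, both on the minus strand of GRCh38. Their coding sequences, 1128 bases each in GENCODE release 29, are identical at 79.4% of aligned positions. The longest run shared by their transcripts is 35 bases, and no window of 50 bases occurs in both. The promoters of this pair are printed because ACTR1A was lower in the LATS libraries described next and ACTR1B did not pass the test there. ACTR1A was chosen for that fall, so the contrast is a description. Each run is 280 bases 5′ to 3′, from RefSeq's GRCh38.p14 promoter table, with the first 30 transcribed bases in capitals, at chr10:102502683-102502962 and chr2:97664015-97664294 (minus strand).
ACTR1A promoter: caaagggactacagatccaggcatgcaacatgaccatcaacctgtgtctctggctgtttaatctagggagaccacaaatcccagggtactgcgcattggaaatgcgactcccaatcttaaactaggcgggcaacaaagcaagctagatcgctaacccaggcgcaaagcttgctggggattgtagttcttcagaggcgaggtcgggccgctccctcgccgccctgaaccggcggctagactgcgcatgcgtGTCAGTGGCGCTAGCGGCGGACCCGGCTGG
ACTR1B promoter: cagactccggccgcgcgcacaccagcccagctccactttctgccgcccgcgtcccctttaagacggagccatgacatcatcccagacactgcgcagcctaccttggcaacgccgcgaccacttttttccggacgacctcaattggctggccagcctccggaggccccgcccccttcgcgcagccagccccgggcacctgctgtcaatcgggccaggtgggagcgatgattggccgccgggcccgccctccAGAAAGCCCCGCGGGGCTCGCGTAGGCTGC
The core letters bound by TEAD factors, the DNA-binding partners of YAP1, were searched in both orientations (GGAATG and CATTCC) over the 300 bases around each start, from 250 before it to 50 after. Neither promoter held them, and 14% of the 35116 promoters in the table did. Promoters were listed for 7 of the 9 genes, with 11 start sites in all, and 1 start each of DCTN2, DCTN3 and DCTN5 held the letters. GC content was 58% for ACTR1A and 69.7% for ACTR1B, against a median of 58.7% over the table.

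ACTR1A was about as much lower with LATS siRNA in each of the 3 lines. In CAKI-1 it had 38.53 FPKM with LATS siRNA, against 77.45 with PTPN14-1, 68.75 with PTPN14-2 and 68.42 with control siRNA. In A704 it had 23.28 FPKM with LATS siRNA, against 62.07 with PTPN14-1, 51.86 with PTPN14-2 and 42.37 with control siRNA. In HK2 it had 43.39 FPKM with LATS siRNA, against 90.95 with PTPN14-1, 79.67 with PTPN14-2 and 75.44 with control siRNA. Within each line the LATS library was thus the lowest and both PTPN14 libraries were above the control, although across lines the HK2 LATS library lay just above the A704 control. ACTR1A stood at 56.3, 54.9 and 57.5% of control in CAKI-1, A704 and HK2. On the log2(FPKM + 1) scale these are changes of -0.81, -0.84 and -0.78, with an SD of 0.026 over the 3 lines and a mean of -0.81. Only 2 of the 12276 genes tested had a lower estimate, but ACTR1A was chosen for this fall, so its place is a description. The mean over LATS libraries was 35.1 ± 10.5 FPKM, against 62.1 ± 17.4 FPKM over control libraries (SD, n = 3 each), a spread that is mostly between lines.

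**Figure D1:**
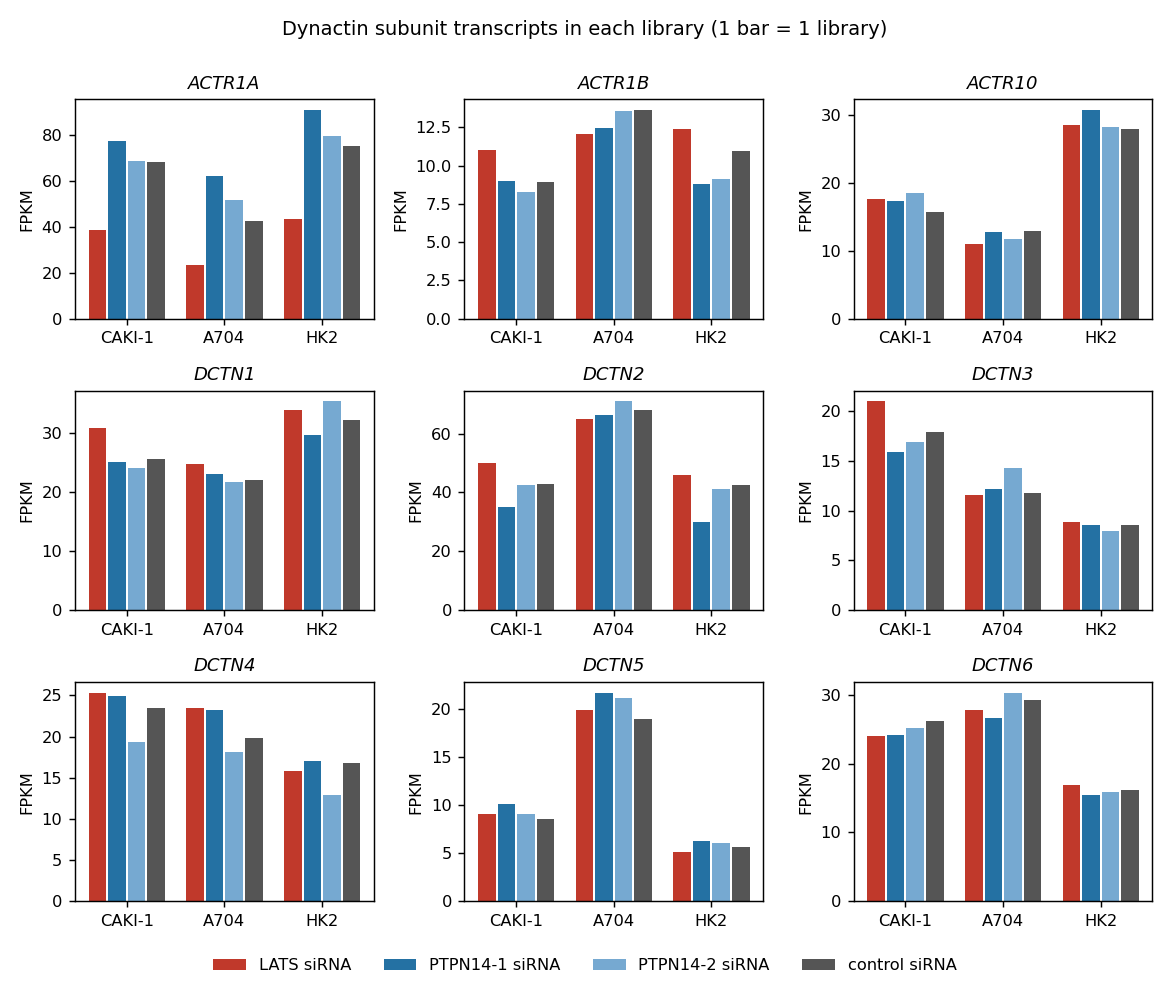
FPKM of the 9 dynactin subunit genes in each of the 12 libraries, grouped by cell line, 1 bar per library. ACTR1A has its LATS bar at 54.9 to 57.5% of the control bar in all 3 lines.

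None of the other 8 subunits passed the test in either direction with LATS siRNA. In a linear model of cell line and siRNA fitted with limma across 12276 genes, 0 of 8 passed an adjusted p of 0.05 (adjusted p from 0.481 to 0.976) and 0 of 8 had an unadjusted p under 0.05. Over all genes 0.122% were called in either direction (0.0244% higher and 0.0978% lower), and 11.2% had an unadjusted p under 0.05. The median change of the 8 was 0.08, beside a median of -0.003 over all genes tested, and 6 of the 8 estimates were above 0. The lower ends of their 95% intervals ran from -0.20 to -0.02 and the upper ends from 0.11 to 0.35. The -0.81 of ACTR1A, chosen for its LATS values, is a description and was not tested against these.

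ACTR1B, the paralogue in the filament, had 11.01, 12.09 and 12.37 FPKM with LATS siRNA in CAKI-1, A704 and HK2, against 8.90, 13.63 and 10.92 with control siRNA. It was higher in 2 lines and lower in A704, and the groups overlapped. Its log2 change was 0.09 (SE 0.10, 95% interval -0.13 to 0.32, limma adjusted p = 0.755). The share of ACTR1B in the sum of both genes was 22.2% with LATS siRNA against 11.5% with control in CAKI-1, 34.2% against 24.3% in A704 and 22.2% against 12.6% in HK2. The sum itself was 49.5, 35.4 and 55.8 FPKM with LATS siRNA in those lines, against 77.3, 56.0 and 86.4 with control siRNA. These shares move with ACTR1A, which was chosen for its LATS values, and carry no test.

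**Figure D2:**
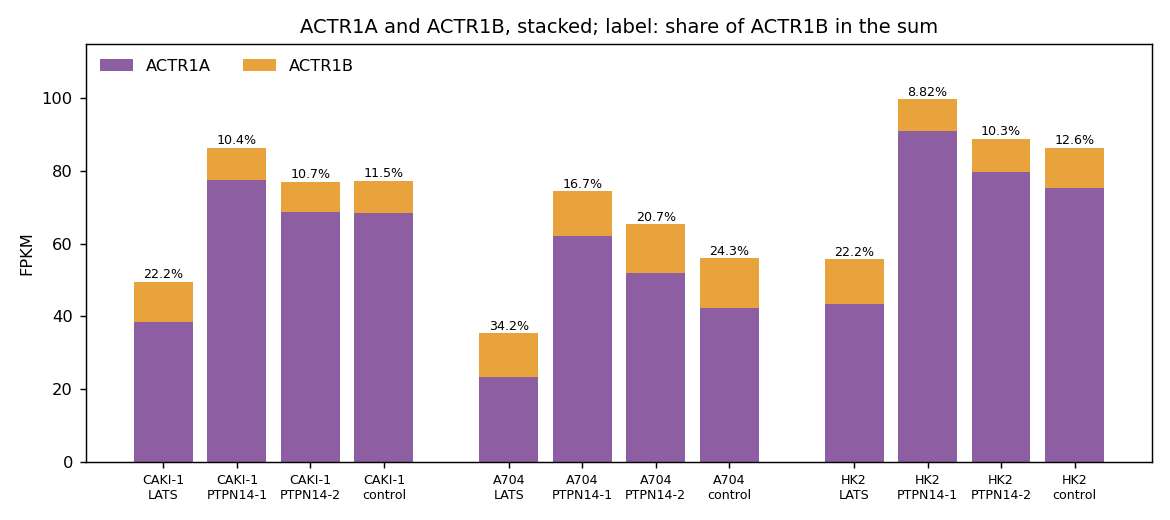
Stacked FPKM of ACTR1A and ACTR1B in each library, 1 bar per library, with the percentage of ACTR1B in the sum above each bar. In each line the LATS bar is the lowest and has the largest ACTR1B share, 22.2 to 34.2%.

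At the end of the filament that ACTR10 closes, values lay near control. ACTR10, the actin-related cap of that end, had 17.63, 10.98 and 28.60 FPKM with LATS siRNA in CAKI-1, A704 and HK2, against 15.78, 12.87 and 27.95 with control siRNA. Its change of -0.01 (SE 0.08, interval -0.19 to 0.17) was the smallest of the 9. DCTN4, a zinc-binding subunit of the same end, had a change of 0.09 (SE 0.07, interval -0.08 to 0.25), with 25.33, 23.41 and 15.84 FPKM with LATS siRNA against 23.42, 19.86 and 16.79 with control siRNA. DCTN5 and DCTN6, a pair of related subunits that help choose cargo, had changes of 0.01 (interval -0.14 to 0.17) and -0.04 (interval -0.20 to 0.11). DCTN5 had 9.12, 19.87 and 5.15 FPKM with LATS siRNA, against 8.59, 18.95 and 5.61 with control siRNA. DCTN6 had 24.05, 27.84 and 16.88 FPKM with LATS siRNA, against 26.15, 29.21 and 16.21 with control siRNA. Each of these 4 genes lay above control in at least 1 line and below it in at least 1.

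In the shoulder and arm, DCTN1 was the one gene of the 8 with a single direction in all 3 lines. DCTN1, whose arm binds dynein and microtubules, had 30.96, 24.73 and 34.02 FPKM with LATS siRNA in CAKI-1, A704 and HK2, against 25.70, 22.07 and 32.20 with control siRNA. Its change of 0.16 (SE 0.08, interval -0.02 to 0.35) did not pass (limma adjusted p = 0.481). DCTN2, or dynamitin, which ties the arm to the filament, had 49.98, 64.83 and 45.91 FPKM with LATS siRNA, against 42.96, 67.96 and 42.53 with control siRNA, a change of 0.08 (interval -0.14 to 0.31). DCTN3, a small coiled-coil shoulder subunit, had 21.00, 11.54 and 8.83 FPKM with LATS siRNA, against 17.88, 11.74 and 8.56 with control siRNA, a change of 0.08 (interval -0.14 to 0.30). The 8 subunits other than ACTR1A summed to 189, 195 and 168 FPKM with LATS siRNA in CAKI-1, A704 and HK2, against 169, 196 and 161 FPKM with control siRNA.

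**Figure D3:**
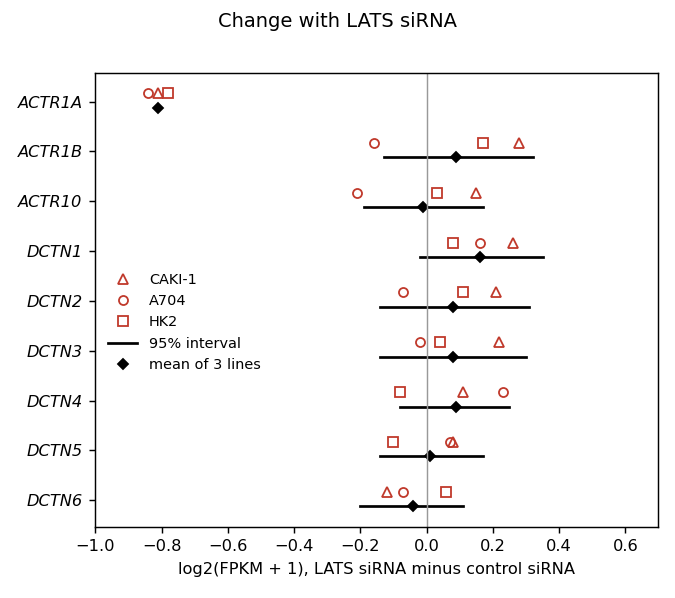
Difference in log2(FPKM + 1) between LATS and control siRNA for each gene. Open symbols are the 3 lines, diamonds their mean and black lines the 95% interval from limma, not drawn for ACTR1A, whose 3 lines lie between -0.84 and -0.78 while the other 8 means lie between -0.04 and 0.16.

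LATS siRNA was also set against the mean of the 2 PTPN14 siRNAs, where the control libraries enter the spread but not the difference. ACTR1A had a log2 difference of -1.04 against their mean. Of the other 8, 0 passed (limma adjusted p from 0.150 to 0.918), beside 4.37% of all genes. DCTN1, ACTR1B, DCTN4 and DCTN2 had estimates of 0.15 to 0.22 and unadjusted p from 0.0285 to 0.0329. These are 4 of the 8, beside 25.0% of all genes with an unadjusted p under 0.05. Leaving out A704 PTPN14-1 gave 1 call, DCTN2 at 0.29 (adjusted p = 0.0346), in a fit that called 1309 genes against 537 with all libraries.

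With a single LATS library per line, the LATS change by line was tested against the spread of the PTPN14 pairs alone, with 3 residual degrees of freedom. Each pair is PTPN14-1 and PTPN14-2, between which 11.7% of all genes were called, so that spread also holds siRNA differences. Of the other 8 subunits 0 passed and 0 had an unadjusted p under 0.05 (lowest 0.188, limma F test), and over all genes 0 passed and 0.912% had such a p. A difference between lines was not detectable for these genes with this design.

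The PTPN14 siRNAs were also set against control siRNA, with control libraries shared with the LATS comparison. ACTR1A was chosen in that comparison, and the LATS libraries enter the spread. Its p-values here are therefore not independent of that choice. With PTPN14-1, ACTR1A rose: the values given above are 113, 146 and 121% of control in CAKI-1, A704 and HK2. Its log2 change was 0.33 (SE 0.09, interval 0.14 to 0.51, limma adjusted p = 0.0429, higher in 3 of 3 lines), in a contrast where 2.39% of all genes were called higher and 5.87% in either direction. That call is close to the threshold. It held without the CAKI-1 or the A704 LATS library and was lost without any 1 of the other 10 libraries, with adjusted p up to 0.182, or without any 1 line (adjusted p from 0.107 to 0.254). With PTPN14-2, ACTR1A stood at 100, 122 and 106% of control, a change of 0.12 (SE 0.09, interval -0.06 to 0.31, adjusted p = 0.537). The difference between the PTPN14 siRNAs was 0.20 (SE 0.09, adjusted p = 0.142), which did not pass.

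Of the other 8 subunits, 0 passed with either PTPN14 siRNA (limma adjusted p from 0.144 with PTPN14-1 and from 0.135 with PTPN14-2, where 1.35% of all genes passed). At an unadjusted p under 0.05 there were 2 with PTPN14-1, where 22.8% of all genes reached that level, and 1 with PTPN14-2, where 15.0% did. DCTN2 was one, at -0.27 with PTPN14-1 (SE 0.10, interval -0.49 to -0.05): it had 35.18, 66.23 and 30.05 FPKM with PTPN14-1 in CAKI-1, A704 and HK2, against 42.96, 67.96 and 42.53 with control siRNA, lower in all 3 lines. Without A704 PTPN14-1 its change was -0.40 and passed (limma adjusted p = 0.0309), in a fit that called 749 genes against 720 with all libraries. DCTN5 had 10.09, 21.66 and 6.27 FPKM with PTPN14-1, against 8.59, 18.95 and 5.61 with control siRNA, higher in all 3 lines at 0.18 (SE 0.07, adjusted p = 0.167). With PTPN14-2 DCTN5 was at 0.10 (adjusted p = 0.540).

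Between the PTPN14 siRNAs 1 of 9 members passed, DCTN4, a share near the 11.7% of all genes called in that contrast. It had 24.98, 23.20 and 17.03 FPKM with PTPN14-1 in CAKI-1, A704 and HK2, against 19.38, 18.15 and 12.91 with PTPN14-2, while control siRNA gave 23.42, 19.86 and 16.79. PTPN14-1 lay above control and PTPN14-2 below it in every line. The difference of 0.35 (SE 0.07, interval 0.19 to 0.52, limma adjusted p = 0.00988) was higher with PTPN14-1 in 3 of 3 lines, in a contrast where 5.52% of all genes were called higher. Leaving out any 1 of the 12 libraries kept the call (adjusted p up to 0.0450), and leaving out a whole line lost it (adjusted p of 0.0576 without A704, 0.0853 without HK2 and 0.0900 without CAKI-1). DCTN2, at -0.27 (adjusted p = 0.113), passed between the PTPN14 siRNAs without A704 PTPN14-1 (-0.40, adjusted p = 0.0221), a fit that called 1168 genes. Against control neither siRNA passed for DCTN4, at 0.11 (adjusted p = 0.422) with PTPN14-1 and -0.25 (adjusted p = 0.135) with PTPN14-2.

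**Figure D4:**
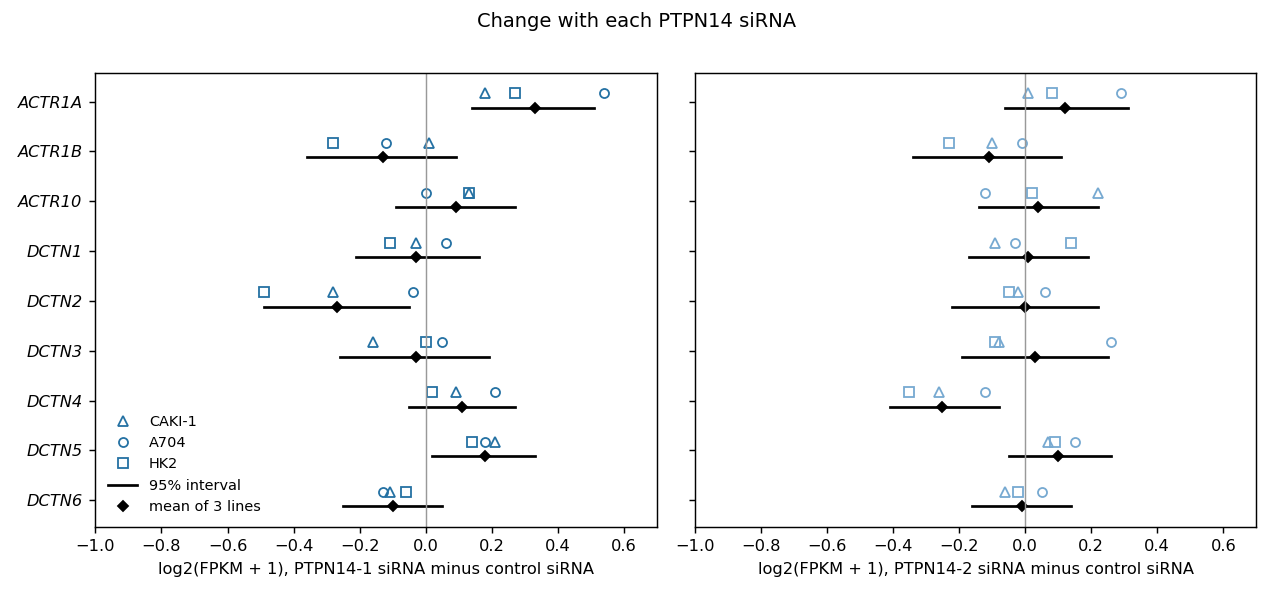
Difference in log2(FPKM + 1) between each PTPN14 siRNA and control siRNA, left PTPN14-1 and right PTPN14-2, with the 3 lines as open symbols, their mean as diamonds and the 95% limma interval as lines. ACTR1A lies at 0.33 and 0.12, and DCTN4 at 0.11 and -0.25.

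The order of the subunits by level differed between lines. FPKM is scaled to transcript length, but the authors' lengths, annotation and strand setting were not at hand. Some members also share exonic bases with other genes. The order between genes is therefore a description. In CAKI-1 the mean over 4 libraries ran from 63.3 ± 17.0 FPKM for ACTR1A and 42.6 ± 6.05 for DCTN2 (SD, n = 4) through DCTN1, DCTN6, DCTN4, DCTN3 and ACTR10 to 9.29 ± 1.19 for ACTR1B and 9.22 ± 0.627 for DCTN5. In that order the ranges of neighbours overlapped except between DCTN2 and DCTN1 and between ACTR10 and ACTR1B. In A704 DCTN2 was first at 67.5 ± 2.66 FPKM, above ACTR1A at 44.9 ± 16.5, and ACTR10 was last at 12.1 ± 0.917, with ranges that overlapped those of DCTN3 and, in turn, of ACTR1B. In HK2 ACTR1A was first at 72.4 ± 20.4 FPKM, DCTN2, DCTN1 and ACTR10 followed with overlapping neighbours, and DCTN5 was last at 5.76 ± 0.492, apart from DCTN3 above it. With LATS siRNA ACTR1A ranked below DCTN2 in all 3 lines, at rank 2 in CAKI-1 and HK2 and rank 5 in A704, whereas with control siRNA it ranked first in CAKI-1 and HK2 and 2 in A704.

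DCTN5 had the widest spread between lines of the 9 genes. It had 18.95 to 21.66 FPKM in the 4 A704 libraries, 8.59 to 10.09 in CAKI-1 and 5.15 to 6.27 in HK2, with no overlap. Its log2 difference was 1.66 between A704 and HK2 (SE 0.06, limma adjusted p = 2.16e-11), 0.60 between CAKI-1 and HK2 (SE 0.06, adjusted p = 9.34e-07) and -1.07 between CAKI-1 and A704 (SE 0.06, adjusted p = 2.83e-09). Here and below, p-values between lines rest on the 4 libraries of each line, which had different siRNAs and were not repeated cultures. ACTR10, of the same end of the filament, had the opposite order, with 15.78 to 18.60 FPKM in CAKI-1, 10.98 to 12.87 in A704 and 27.95 to 30.78 in HK2. Its difference was -1.19 between A704 and HK2 (SE 0.07, adjusted p = 2.41e-09).

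Between A704 and HK2 all 9 genes passed (6 higher and 3 lower in A704), beside 84.6% of all genes (40.6% higher, 44.0% lower). Between CAKI-1 and HK2 7 of 9 passed (4 higher, 3 lower), beside 81.7% of all genes (40.4% higher, 41.3% lower). Between CAKI-1 and A704 8 of 9 passed (4 each way), beside 81.1% (41.8% higher, 39.3% lower). These counts lie near the background of lines that differ at most genes. The 2 without a call between CAKI-1 and HK2 were ACTR1B (-0.13) and DCTN2 (0.10). DCTN4 was the one without a call between CAKI-1 and A704 (0.13). ACTR1A was lower in CAKI-1 than in HK2 (log2 difference -0.19, SE 0.07, limma adjusted p = 0.0333), and this call was lost without HK2 LATS, HK2 PTPN14-2, the HK2 control, CAKI-1 PTPN14-1 or CAKI-1 PTPN14-2 (adjusted p up to 0.129), with upper quartile scaling (0.0545) and with both PTPN14 siRNAs as 1 target (0.0810). DCTN1 was higher in CAKI-1 than in A704 (0.20, adjusted p = 0.0233), until the LATS or control library of either line or A704 PTPN14-2 was left out (adjusted p up to 0.0867), or the values were scaled by quantiles (0.0732) or the upper quartile (0.0888). DCTN6 was lower in CAKI-1 than in A704 (-0.19, adjusted p = 0.0122), until A704 PTPN14-2 was left out (adjusted p = 0.0542).

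**Figure D5:**
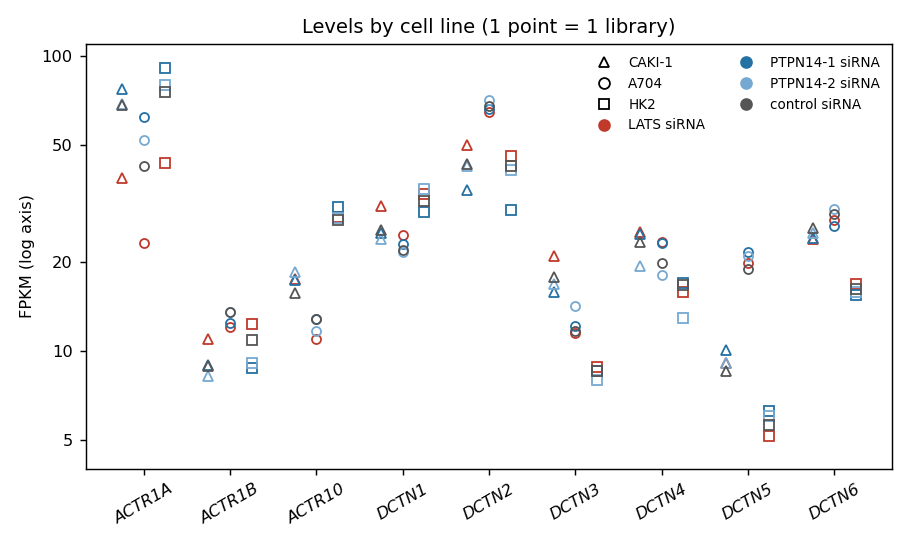
FPKM of each subunit gene on a log axis, 1 point per library, with CAKI-1, A704 and HK2 side by side and colours for the siRNA. DCTN5 spans 5.15 to 21.66 FPKM over the lines, ACTR10 10.98 to 30.78 and ACTR1B 8.26 to 13.63.

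The partners of dynactin were read from 9 lists of known function that name 76 symbols, of which 73 were in the table and 66 were tested. With LATS siRNA 0 of 66 passed (limma, lowest adjusted p = 0.261), beside 0.122% of all genes. An unadjusted p under 0.05 was found for 7, near the 11.2% of all genes at that level, and the estimates ran from -0.29 to 0.30. The 5 actin and capping genes that dynactin shares with other actin structures had a median change of 0.01, and CAPZB, a capping protein subunit, was at 0.17. The 10 measured chains of cytoplasmic dynein 1 had a median of 0.02. The 3 regulators of the LIS1 group had -0.06, with PAFAH1B1, which encodes LIS1, also at -0.06. The 17 measured adaptors, which link dynein and dynactin to cargo, had a median of -0.02. Among 9 genes listed for microtubule plus-end proteins that bind or recruit DCTN1, the median was 0.02. MAPRE3 was at 0.30 (SE 0.09, limma adjusted p = 0.261). The 4 measured kinesin-1 genes had a median of 0.03, with KIF5B, the heavy chain of this opposing motor, at -0.22. The 5 chains of cytoplasmic dynein 2, the form that serves the cilium, had a median of -0.14. The 9 other measured actin-related genes had -0.09. The 4 kinetochore genes that recruit dynein had -0.18, with ZW10 at -0.22 (limma adjusted p = 0.350).

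With the PTPN14 siRNAs 4 list genes passed, named here after their values were seen. ACTR3, a subunit of the Arp2/3 actin nucleator, rose with PTPN14-1 by 0.33 on the log2 scale (SE 0.07, limma adjusted p = 0.0176), with 58.56, 39.94 and 102.00 FPKM in CAKI-1, A704 and HK2 against 48.63, 30.88 and 78.41 with control. MAPRE1, the plus-end protein EB1, fell with PTPN14-1 by 0.35 (limma adjusted p = 0.0319). So did TCTEX1D2, a light chain of cytoplasmic dynein 2, by 0.53 (limma adjusted p = 0.0167). DYNLL2, a dynein light chain with other partners too, fell with PTPN14-2 by 0.38 (adjusted p = 0.0375). These are 1 higher and 2 lower of 66 with PTPN14-1 and 1 lower of 66 with PTPN14-2, beside 2.39% of all genes higher and 3.47% lower with PTPN14-1 and 0.904% lower with PTPN14-2.

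Likeness to ACTR1A was measured by Pearson's r of log2(FPKM + 1), centred within each line, over the 12 libraries, which share the LATS values that chose the gene. The most alike were PPIC, E2F5 and LATS1 (r = 0.95 each), SKA1 (0.94) and DPH3 (0.93). E2F5 had 4.23, 2.64 and 3.26 FPKM with LATS siRNA in CAKI-1, A704 and HK2, against 11.24, 6.35 and 6.97 with control siRNA. PPIC had 32.95, 7.36 and 4.58 FPKM with LATS siRNA, against 41.84, 11.06 and 6.51 with control siRNA. Among the subunits DCTN5 was nearest (r = 0.61, place 1092 of 12276), followed by ACTR10 (0.38), and DCTN1 was at the other end (-0.68), with ACTR1B at -0.54 and DCTN2 at -0.51.

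Reads of some members can be shared with overlapping genes. In GENCODE release 29, exons of an antisense gene, AL121928.1, cover 11.2% of the exonic bases of ACTR1A, and those of MFSD13A cover 2.08%. For DCTN6, 12.8% is shared with LEPROTL1 on the same strand and 12.5% with an antisense gene, and for DCTN5 26% with a non-coding gene on the same strand. The library kit marks strand, and the strand setting of the counting is not given in the sources used here.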

How the data were processed

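The authors deposited gene-level FPKM, 1 value per entry and library to 2 decimals, without counts. The submitters' processing notes name STAR 2.4.0g1 and GRCh38.p1. How genes were counted, with which annotation and strand setting, and whether libraries were rescaled is not stated in the labels. Depth was estimated from the steps between low values of 100 to 148 single-exon genes, of which 62.3 to 80.4% lay within 0.0051 FPKM of a whole read. The authors' transcript lengths were not at hand, so no counts were recovered and no count test was run.

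Values entered as log2(FPKM + 1), which understates the change of low genes, for the 12276 entries above FPKM 1 in at least 3 libraries. A model of cell line and 4 siRNA reagents (6 residual degrees of freedom) was fitted in limma (version 3.58.1, R 4.3.3, statmod 1.5.0), using its trend and robust options, with Benjamini-Hochberg adjustment over every entry and calls at 0.05. Libraries of different siRNAs are paired by cell line, and the leading principal components (57 and 38.1% of variance) split the lines. The fit was tested on simulated data. Gene coordinates come from GENCODE release 29 (GRCh38). The members, lists and tests were chosen with earlier results of these data known. The genes named are the members, the siRNA targets, genes with the smallest LATS p in each list (at most 2) and the 5 most like ACTR1A. List genes that passed with a PTPN14 siRNA were named after their values were seen. Alternatives were a pseudocount of 0.1, no filter or a filter at FPKM 5, quantile or upper quartile scaling, no trend, 3 targets in place of 4 reagents (both PTPN14 siRNAs as 1), no block, and leaving out each library or line.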

Additional observations from a re-analysis of the deposited data

Results flagged for a closer look

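DCTN4 differed between the 2 siRNAs aimed at PTPN14, by a log2 difference of 0.35 (PTPN14-1 minus PTPN14-2, SE 0.07, limma adjusted p = 0.00988, n = 3 libraries each), with 24.98, 23.20 and 17.03 FPKM with PTPN14-1 and 19.38, 18.15 and 12.91 with PTPN14-2 in CAKI-1, A704 and HK2. In that contrast 11.7% of all genes were called, and 1 of 9 members lies near that share.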

How the results depend on the processing

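The absence of a call among the 8 subunits with LATS siRNA was the same under the 8 single-choice settings, the 12 fits that left out 1 library and the 3 that left out a line, as was the count of 0 for the 66 partner genes. The count of 0 for the 9 subunits with PTPN14-2 was the same under 7 single-choice settings (3 targets does not apply) and the same fits without a library or a line. The LATS change of ACTR1A ran from -0.87 to -0.74 over all settings. The 1 call with PTPN14-1, ACTR1A, became 0 without a filter, with quantile or upper quartile scaling, without the trend, without the replicate block and without any 1 line. Over the fits without 1 library the count of calls ran from 0 to 1. ACTR1A kept its call only without the A704 or the CAKI-1 LATS library. Without A704 PTPN14-1 the 1 call was DCTN2. The call for DCTN4 between the PTPN14 siRNAs became 0 without the replicate block or without any 1 line, and the count was 1 to 2 without 1 library. Against the PTPN14 mean, the count was 0 to 1.

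Among all genes, the 15 calls with LATS siRNA became 3 without a filter, 3 with 3 targets, 2, 1 and 0 without A704, HK2 and CAKI-1, and 3 to 20 without 1 library. With PTPN14-1 the 720 became 355 without a filter, 299, 40 and 145 without these lines and 200 to 830 without 1 library. With PTPN14-2 the 166 became 60, then 50, 15 and 14, and 34 to 252. Against the PTPN14 mean the 537 became 167 without a filter, 43 with 3 targets, 150, 11 and 8, and 35 to 1309. Between the PTPN14 siRNAs the 1437 became 566, 319 and 503 without these lines, and 742 to 1638. Without the cell line as a block each of these siRNA counts was 0, as the lines then enter the spread. Estimates without a call crossed 0 in 9 of 207 refits for LATS and 18 of 198 for PTPN14-2; no called estimate changed sign. Fewer libraries were tested where a line was left out, and for the other changes the cause was not tested. The test of the LATS change by line was not run without single libraries. Each siRNA had 1 library per line, so single-line effects have no replicate, and genes of low FPKM are limited by depth.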
